A study of Mus musculus with 15 samples.

Results

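Small RNA from the testes of male C57Bl/6 mice aged 8 weeks was bound with an antibody against pseudouridine (Ψ), and 3 libraries each were made of the bound RNA (Ψ-IP), of the input and of the unbound flow-through. Reads had been counted by genomic locus, that is, by chromosome, start, end and strand, so that each locus has a fixed length. Mismatches were allowed in mapping, so reads at a locus may differ in sequence. Long loci were those of 34 to 44 nt that carried no repeat annotation. They numbered 380685 of the 5630367 loci in the 9 libraries (6.76%), and they held 2291300 of 162035109 counts (1.41%). The labels do not say whether libraries of a group came from separate animals or from pools, so the spread between them, which is all that p-values here measure, may be technical. The mock-treated and CMC-treated libraries of the study stop at 33 nt and were not used here. According to the labels, RNA of 17 to 40 nt was cut from the gel for all groups, so loci of 41 to 44 nt lie beyond the stated range. The study's methods name a narrower cut for the Ψ-IP protocol that ends below 34 nt, by which every long locus lies outside the cut. The part of the gel cut in the shares by length was not tested.

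PIWI-interacting RNAs (piRNAs) guide PIWI proteins in germ cells. They are cut in succession from long single-stranded precursors, mostly at a uridine, so that the cut that makes the 3′ end of one pre-piRNA can make the 5′ end of the next. In mouse, the exonuclease PNLDC1 then trims the 3′ end of the pre-piRNA back to the edge of the PIWI protein, and HENMT1 methylates the new end. Mature piRNAs bound by MILI are shorter than those bound by MIWI, and both are shorter than the loci described here. Ψ is an isomer of uridine that pseudouridine synthases make within an RNA chain.

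Sequence was at hand only for loci that lie wholly inside annotated exons, 71511 of the 380685 long loci (18.8%). The 8 most abundant of these in noncoding exons, with overlapping loci taken as 1, are shown to set each beside the shorter locus that starts at the same base. Each is written 5′ to 3′ from the GENCODE M21 transcripts (GRCm38, the assembly also called mm10), with T for U. The capitals mark the bases past the 3′ end of the most abundant locus of 24 to 33 nt that starts at the same base.

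Gm21269, chr7:73817222-73817255, plus strand, 34 nt: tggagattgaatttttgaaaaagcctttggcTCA
Gm10619, chr7:73809726-73809760, minus strand, 35 nt: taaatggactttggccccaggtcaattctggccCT
Gm5878, chr6:85112422-85112465, minus strand, 44 nt: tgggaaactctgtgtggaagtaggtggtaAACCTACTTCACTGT
1700029M20Rik, chr4:135628541-135628574, plus strand, 34 nt: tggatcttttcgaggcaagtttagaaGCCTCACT
Gm10619, chr7:73809462-73809495, minus strand, 34 nt: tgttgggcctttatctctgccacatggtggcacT
Gm48465, chr10:86603668-86603701, plus strand, 34 nt: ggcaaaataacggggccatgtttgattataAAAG
CT025671.2, chr17:66227714-66227750, minus strand, 37 nt: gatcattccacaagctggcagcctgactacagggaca
Gm21269, chr7:73819612-73819647, plus strand, 36 nt: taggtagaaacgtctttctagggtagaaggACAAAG

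The genes Gm21269, Gm10619, Gm5878 and 1700029M20Rik are annotated as lincRNA, whereas Gm48465 and CT025671.2 are processed pseudogenes, whose reads may belong in part to their parent genes. All loci from the lincRNAs began with T, whereas both pseudogene loci began with G. For CT025671.2 there was no shorter locus with the same 5′ end. The 36-nt locus of Gm21269 had 1270 counts over the 9 libraries and its 30-nt counterpart 9142, whereas the 34-nt locus of Gm21269 had 12582 counts against 6250 for its 31-nt counterpart. Beside that most abundant shorter locus, the long form held fewer counts at the first of these 5′ ends and more at the second. Other lengths that start at the same base were not summed.

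These exonic loci differed in where they were recovered. Counts were compared between groups with the quasi-likelihood test of edgeR, adjusted by Benjamini-Hochberg (BH) over all tested loci, and a BH-adjusted p under 0.01 was taken as a call. The 36-nt locus of Gm21269 had 206, 128 and 174 counts in the input libraries, 21, 5 and 25 in Ψ-IP and 254, 208 and 249 in flow-through. All Ψ-IP libraries were below every other library, and the log2 fold change was −3.08 ± 0.31 (SE) against input (edgeR, BH-adjusted p = 3.04e-20) and −3.37 ± 0.37 against flow-through (edgeR, BH-adjusted p = 1.09e-17). Its 30-nt counterpart fell less, with log2 fold changes of −0.85 and −1.08 (edgeR, BH-adjusted p = 0.000499 and 0.000379); the difference between the loci was not tested. The locus of Gm5878 had 711, 463 and 389 counts in input, 62, 47 and 138 in Ψ-IP and 348, 350 and 397 in flow-through. It was lower in Ψ-IP than in input by a log2 fold change of −2.47 ± 0.24 (edgeR, BH-adjusted p = 3.38e-21), whereas the 29-nt locus with the same 5′ end was higher by 1.65 (edgeR, BH-adjusted p = 4.98e-06). The locus of 1700029M20Rik went the other way, with 275, 180 and 140 counts in input, 281, 288 and 429 in Ψ-IP and 21, 3 and 12 in flow-through. Its log2 fold change in Ψ-IP was 1.04 ± 0.23 against input (edgeR, BH-adjusted p = 7.81e-05) and 5.31 ± 0.37 against flow-through (edgeR, BH-adjusted p = 6.20e-43). The pseudogene locus of CT025671.2 was abundant in flow-through, with 582, 302 and 221 counts there against 63 to 78 in input and 42 to 82 in Ψ-IP. Its log2 fold change was 2.25 ± 0.26 for flow-through against input (edgeR, BH-adjusted p = 5.00e-07) and −2.17 ± 0.31 for Ψ-IP against flow-through (edgeR, BH-adjusted p = 2.36e-10).

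Most long loci were rare. The median was 2 counts over the 9 libraries together, and 182274 loci (47.9%) had a single count. In all 9 libraries 4578 loci (1.20%) were detected, whereas 260553 (68.4%) were detected in only 1. The 10 most abundant loci held 5.51% of the counts and the 1000 most abundant 28.5%. Library totals were between 11575705 and 25063656 counts for all lengths. The 13558 long loci with more than 20 counts in total (3.56%) could be tested singly, and they held 56.4% of the counts of long loci. Between libraries of a group the abundant long loci varied more than counting error (chi-square over degrees of freedom of 2.51 to 5.03 for pairs), and every library stayed a replicate.

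Long loci took the largest share of counts in flow-through and the smallest in Ψ-IP. They held 1.35%, 1.27% and 1.18% of the counts in the 3 input libraries, 1.02%, 1.02% and 1.05% in Ψ-IP, and 2.11%, 1.63% and 1.92% in flow-through. No library of a group overlapped those of another. The means were 1.27% ± 0.0851 in input, 1.03% ± 0.0177 in Ψ-IP and 1.89% ± 0.241 in flow-through (SD, n = 3). Each comparison of groups gave an exact permutation p of 0.1, two-sided, the smallest that 3 against 3 libraries allow, and p-values adjusted over the 6 comparisons of shares made here were also 0.1 in this exact test. With every locus given the same weight, whatever its counts, the input libraries (3.63% to 4.28%) and the Ψ-IP libraries (3.36% to 4.24%) overlapped. The 75028 long loci inside repeats gave the same order of groups, with 0.232% ± 0.0175 in input, 0.194% ± 0.00667 in Ψ-IP and 0.336% ± 0.0419 in flow-through (SD, n = 3).

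**Figure D1:**
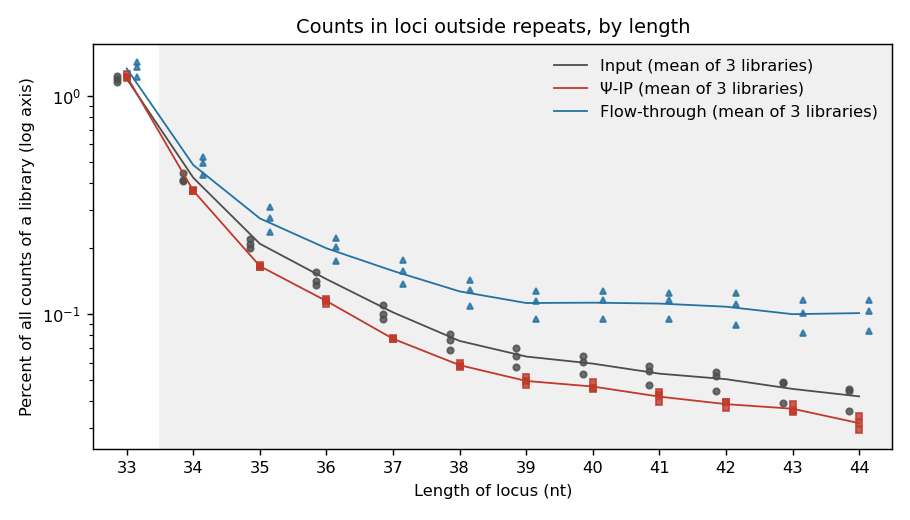
Percent of all counts of a library (log axis) in loci outside repeats, by length in nt; points are libraries, lines are means of 3 libraries, and the shaded part marks 34 to 44 nt. The groups lie together at 33 nt and separate with length, and at 44 nt the flow-through libraries sit between 0.0835% and 0.117%, above every input (0.0361% to 0.0455%) and Ψ-IP library (0.0293% to 0.0340%).

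The groups parted with length. At 33 nt, just outside the range, the share of counts was 1.20% ± 0.0335 in input, 1.23% ± 0.0220 in Ψ-IP and 1.33% ± 0.0997 in flow-through (SD, n = 3). At 34 nt it was 0.421% ± 0.0208, 0.367% ± 0.00201 and 0.482% ± 0.0464, and at 44 nt 0.0420% ± 0.00515, 0.0317% ± 0.00235 and 0.101% ± 0.0166. The counts fell off more slowly with length in flow-through. For every 100 counts at 34 nt, flow-through libraries had 22.3, 19.3 and 21 counts at 44 nt, input libraries 10.2, 10.8 and 8.88, and Ψ-IP libraries 8.65, 7.98 and 9.22. Flow-through did not overlap the other groups in this ratio, whereas input and Ψ-IP overlapped.

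Counts were then summed over the loci of each length, with repeats apart, and the sums were tested with edgeR at the same threshold over all sums, on library sizes taken from all loci. Flow-through was higher than input at 8 of the 11 lengths from 34 to 44 nt and lower at 0, and 9 of the 11 had an unadjusted p under 0.05. With sums over loci of more than 20 counts only, 5 lengths passed. Over all 60 sums of the table, 20% were higher and 33.3% lower. The log2 fold change rose at each added base, from −0.01 ± 0.09 (SE) at 34 nt through 0.55 ± 0.14 at 38 nt and 0.86 ± 0.14 at 41 nt to 1.06 ± 0.15 at 44 nt (edgeR, BH-adjusted p = 0.884, 0.000211, 6.63e-08 and 2.66e-10). The 44-nt sum was thus 2.08-fold higher in flow-through. At 30 nt, the most abundant length, the log2 fold change of flow-through against input was −0.24 ± 0.03 (edgeR, BH-adjusted p = 2.57e-17), but it was −0.04 ± 0.02 (edgeR, BH-adjusted p = 0.0550) when libraries were scaled to their total counts without TMM (the trimmed-mean scaling of edgeR), an alternative chosen after seeing the data. That scaling moved the median over all tested loci from −0.10 to 0.03 in Ψ-IP against input, from −0.02 to −0.27 in Ψ-IP against flow-through and from −0.24 to −0.04 in flow-through against input, so changes near 0 depend on the scaling. At 34 nt flow-through against input was then 0.19 (edgeR, BH-adjusted p = 0.0184), and 10 of the 11 long sums were higher. The 20% and 33.3% of all sums given above are not those of that scaling.

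Ψ-IP was lower than flow-through at 10 of the 11 lengths, all but 34 nt, and higher at 0, whereas over the 60 sums 46.7% were lower and 18.3% higher. The log2 fold change was −0.14 ± 0.09 at 34 nt, −0.87 ± 0.11 at 38 nt and −1.42 ± 0.12 at 44 nt (edgeR, BH-adjusted p = 0.147, 5.62e-12 and 1.79e-22), and it fell at every added base except from 42 to 43 nt. With library totals all 11 were lower, but the 46.7% and 18.3% of all sums are not those of that scaling. In contrast, Ψ-IP was higher than flow-through at 30 nt by a log2 fold change of 0.32 ± 0.09 (edgeR, BH-adjusted p = 0.000494), or 0.07 ± 0.02 with library totals (edgeR, BH-adjusted p = 0.00102). Against input, Ψ-IP was lower at all 11 lengths, but 78.3% of the 60 sums were lower in that comparison and 0% higher. These log2 fold changes lay between −0.55 at 44 nt and −0.34 at 34 nt with no steady slope. Without Ψ-IP replicate 1, the sums at 7 lengths passed.

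**Figure D2:**
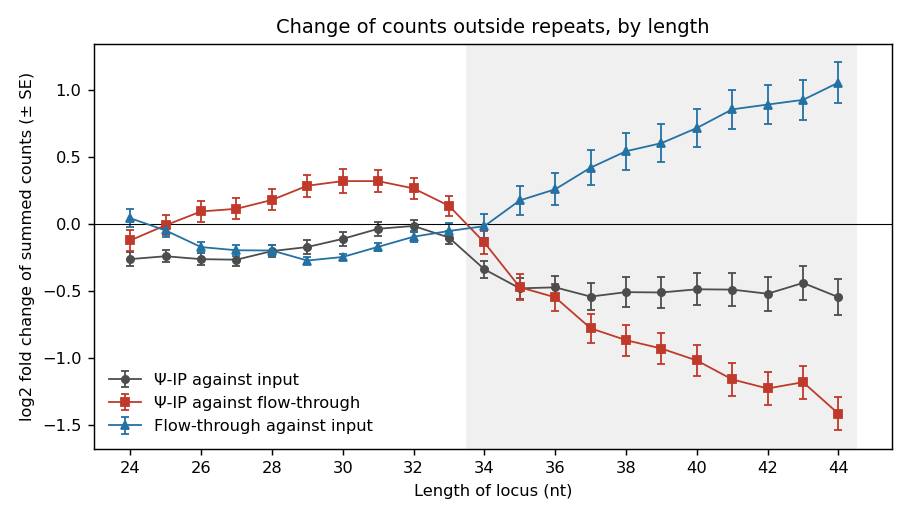
log2 fold change of the counts summed by length (± SE from edgeR, 6 libraries per comparison) for loci outside repeats of 24 to 44 nt, with 34 to 44 nt shaded. Flow-through against input climbs from −0.01 at 34 nt to 1.06 at 44 nt and Ψ-IP against flow-through drops from −0.14 to −1.42, whereas Ψ-IP against input stays between −0.55 and −0.34.

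Long loci often began where a piRNA of usual length began. Of the counts of long loci, 34.9%, 37.3% and 34.6% in input, 41.1%, 42.7% and 42.8% in Ψ-IP and 37.8%, 40.5% and 38.6% in flow-through fell in loci that shared their 5′ end with a locus of 24 to 33 nt with at least 10 times their count. The means were 35.6% ± 1.46, 42.2% ± 0.965 and 38.9% ± 1.39 (SD, n = 3), and no groups overlapped (exact permutation p = 0.1 for each comparison, the smallest possible). The order of input and flow-through depended on the definition. When the shorter locus needed only more than 20 counts in all, the share was 81.2% ± 0.398 in input, 82.6% ± 0.551 in Ψ-IP and 76.5% ± 0.189 in flow-through (SD, n = 3). Ψ-IP had the highest share either way. Long loci that shared their 3′ end with a locus of 24 to 33 nt of at least 10 times their count held 12.7% ± 0.516 of the counts in input, 16.7% ± 0.261 in Ψ-IP and 13.4% ± 1.31 in flow-through (SD, n = 3), where Ψ-IP lay above both other groups and these overlapped. A locus can share both ends with different loci, so these shares are not added. The shorter partner was of 29 to 31 nt, the length usual for MIWI, for 71.9% of the counts with a partner by the first definition, and of 25 to 27 nt, the length usual for MILI, for 11.3%. The long locus reached 1 to 5 bases past its partner for 44.2% of those counts, and the median over loci was 8 bases.

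At their 3′ ends, long loci tended to stop just before another piRNA. For 31.7% ± 0.142 of the counts in input, 32.2% ± 0.208 in Ψ-IP and 30.3% ± 0.101 in flow-through (SD, n = 3), the base right after the locus was the first base of a locus of 24 to 33 nt with more than 20 counts on the same strand. At distances of 5 to 15 bases the values were lower, 20.3% ± 0.172, 20.7% ± 0.114 and 18.1% ± 0.255 on average. On the last base of the locus itself the value was 25.3% to 25.6% in the input libraries, so that the peak had a shoulder. Counting each long locus once gave 21.4% at the first base and 14.2% to 15.4% at 5 to 15 bases. The 1642897 loci of 29 to 31 nt had no such peak, with 12.1% at the first base and 12.1% to 12.3% at 5 to 15 bases. In counts, those loci had 20.3% ± 0.210 in input at the first base and 24.3% ± 0.0276 at 5 to 15 bases (SD, n = 3). The highest value by length was 36% at 35 nt and the lowest 27.3% at 43 nt, over all 9 libraries.

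**Figure D3:**
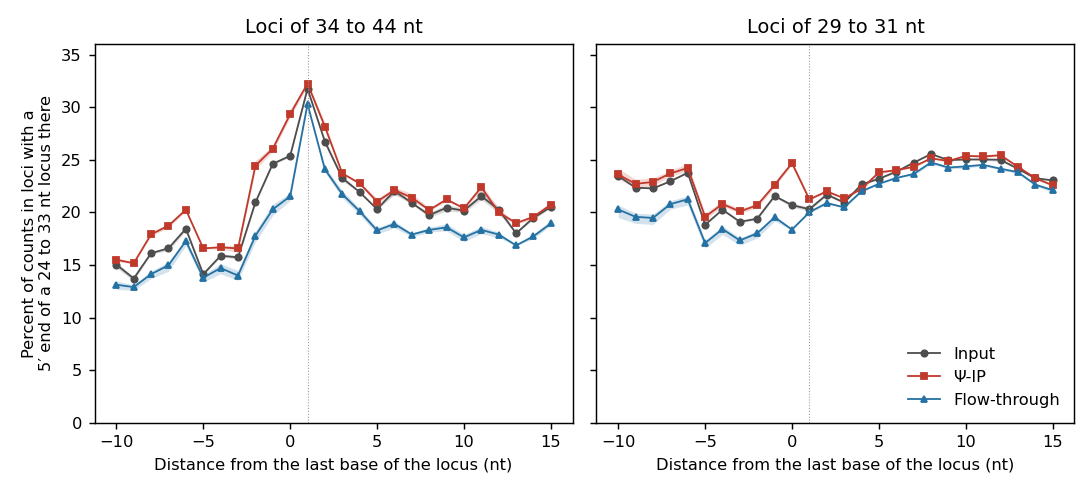
Percent of the counts of long loci (left) and of loci of 29 to 31 nt (right) for which a locus of 24 to 33 nt with more than 20 counts starts at the given distance from the last base, where 1 is the base right after it; lines are means of 3 libraries and bands their range. Long loci peak at 1, at 30.2% to 32.4% in the 9 libraries, and the shorter loci do not.

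Base composition was read for exonic loci only. Of the 71511 long loci with a sequence, 66.1% began with T (75.0% of their counts), against 86.2% (90.6% of counts) of 51297 tested loci of 29 to 31 nt. Among the 2088 long loci that were tested in the same way it was 74.7% (80.9% of counts). The share was similar over the range, between 63.3% of loci at 38 nt and 68.8% at 34 nt. The base right after the 3′ end was T for 35.2% of the long loci, whereas the next 4 positions had T in 26.5% to 27.1%. After loci of 29 to 31 nt there was no such step, with T at 28.2% to 28.5% over the 5 positions. A at base 10, which in ping-pong cleavage pairs with the first uridine of the partner piRNA, was found in 39.2% of long loci, 44.4% of the tested long loci and 29.4% of the tested loci of 29 to 31 nt. Neighbouring loci share bases, so these shares are descriptions.

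The tested exonic loci also differed in T by where they were recovered. The median T content was 24.4% over the 2088 tested long loci with a sequence and 30% over the loci of 29 to 31 nt. It was 33.8% in the 70 that were higher in Ψ-IP than in flow-through and 18.4% in the 190 that were lower. Of these, 94.3% and 65.3% began with T, against 74.7% of all tested. Against input the median was 29.7% in the 45 loci higher in Ψ-IP and 23.2% in the 198 lower, and 82.2% and 86.4% of them began with T, so there the lower loci had the larger share. Of the 152 loci higher in flow-through than in input, 55.9% began with T, with a median T content of 17.1%, whereas of the 59 lower loci 91.5% began with T and the median was 31.4%. The part of T content in these calls was not tested.

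By position, 231370 long loci (60.8%) lay outside annotated genes, 60543 (15.9%) in introns and 55183 (14.5%) in exons on the same strand. The opposite strand of introns held 4.80% and that of exons 4.02%. Genes for lncRNA held 22.6% and protein-coding genes 12.7%. Nearly all, 380441 (99.9%), lay in 634 of the piRNA clusters listed in the study's source data, which follows from the authors' intersection of reads with those clusters. The exonic share of counts was 13.4% ± 0.131 in input, 14.7% ± 0.0816 in Ψ-IP and 13.6% ± 0.149 in flow-through (SD, n = 3), and Ψ-IP did not overlap the others. UTRs of coding genes, which are also known as a source of piRNAs, held 3.15% ± 0.0930 of the counts in input, 3.98% ± 0.214 in Ψ-IP and 2.79% ± 0.0687 in flow-through, whereas coding sequence held 0.473% ± 0.0270, 0.413% ± 0.0188 and 0.675% ± 0.0393 (SD, n = 3). The high UTR share of Ψ-IP rested on 1 locus, the 36-nt locus of Nemp1 described below. Without its counts, a value computed after seeing the data, UTRs held 2.64% ± 0.0545 in input, 2.69% ± 0.0610 in Ψ-IP and 2.36% ± 0.0420 in flow-through (SD, n = 3). Input and Ψ-IP then overlapped, and flow-through stayed below both. The exonic share without it was 12.8% ± 0.136, 13.4% ± 0.119 and 13.1% ± 0.107 in the same order, and Ψ-IP still did not overlap the others.

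Single loci were tested with edgeR over all 686863 loci with more than 20 counts. Of the 13558 long loci tested, 237 were higher in Ψ-IP than in input and 1356 lower (1.75% and 10%), against 5.45% and 10.7% of all tested loci. The share of lower loci was near that background. The Wald test of DESeq2 called 84 higher and 703 lower, beside 20099 and 42901 of all 686863 loci. Against flow-through, 531 long loci were higher in Ψ-IP and 1009 lower (3.92% and 7.44%), where 9.3% and 3.56% of all loci were. The Wald test called 372 and 642, beside 48588 and 17719 of all 686863 loci. Scaling to library totals called 424 and 1376, beside 51604 and 38446 of all loci. In flow-through against input, 816 were higher and 529 lower (6.02% and 3.90%), against 6.45% and 9.73% of all loci. With library totals these were 1117 and 366, beside 56265 and 52032 of all 686863 loci. The share of higher long loci was thus near the background at either scaling. The median log2 fold change of the tested long loci was −0.50 for Ψ-IP against input, −0.97 for Ψ-IP against flow-through and 0.44 for flow-through against input, beside −0.10, −0.02 and −0.24 over all tested loci. With groups at 0 counts set to a floor of 3 counts over the group, the medians were −0.46, −0.95 and 0.44. Of 5770 tested loci sharing their 5′ end by the first definition above, 115 were higher and 313 lower in Ψ-IP than in input. These were 1.99% and 5.42%, against 1.57% and 13.4% for the other 7788 loci, which gave 122 and 1043. That definition uses the counts of the long locus itself, so abundant long loci fall more often among the others. The 2 classes can therefore differ in counts, and whether a shared 5′ end bears on the calls was not tested. The calls depended on single libraries. Without input replicate 1 or 3, 765 or 1004 long loci were called between Ψ-IP and input, without Ψ-IP replicate 2 or 3, 979 or 985 between Ψ-IP and flow-through, and without input replicate 1, 2 or 3, 600, 687 or 568 between flow-through and input.

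The balance of calls shifted along the range. In flow-through against input, 184 of 4328 tested loci of 34 nt were higher and 211 lower (4.25% and 4.88%). At 44 nt 35 of 504 were higher and 2 lower (6.94% and 0.397%), beside 6.45% and 9.73% of all tested loci. The share of higher loci at 44 nt was thus near the background, whereas that of lower loci was below it. In Ψ-IP against flow-through, 253 of the 34-nt loci were higher and 185 lower (5.85% and 4.27%). Of the 44-nt loci 8 were higher and 58 lower (1.59% and 11.5%), where 9.3% and 3.56% of all tested loci were.

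The most abundant long locus, chr10:75856964-75856997 on the plus strand (34 nt, outside genes), had 316, 221 and 255 counts in input after scaling to library size (CPM), 121, 121 and 105 in Ψ-IP and 146, 134 and 157 in flow-through. Input stood above both other groups, with a log2 fold change of −1.15 ± 0.19 for Ψ-IP (edgeR, BH-adjusted p = 1.35e-07) and −0.90 ± 0.18 for flow-through (edgeR, BH-adjusted p = 0.000630), and Ψ-IP differed from flow-through by −0.07 ± 0.24 (edgeR, BH-adjusted p = 0.885). The locus chr9:67725469-67725503 (minus strand, 35 nt, outside genes) had the same pattern, with 192, 197 and 183 CPM in input, 73.0, 90.8 and 80.5 in Ψ-IP and 113, 83.1 and 99.7 in flow-through. Its log2 fold change was −1.18 ± 0.20 in Ψ-IP and −0.98 ± 0.18 in flow-through against input (edgeR, BH-adjusted p = 8.84e-08 and 0.000262). Such loci were low in both fractions, bound and unbound.

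Others were high in a single fraction. The locus chr15:74640859-74640893 (plus strand, 35 nt, outside genes) had 225, 177 and 206 CPM in flow-through, 59.8 to 70.8 in input and 46.3 to 76.7 in Ψ-IP. Flow-through was above every other library, with a log2 fold change of 1.60 ± 0.19 against input (edgeR, BH-adjusted p = 5.69e-07). The locus chr7:73786058-73786101 (minus strand, 44 nt), in an intron of the lincRNA gene Gm10619, had 104, 76.2 and 93.6 CPM in flow-through, 29.1, 19.7 and 23.6 in input and 6.33, 8.62 and 15.9 in Ψ-IP. The log2 fold change was 1.88 ± 0.21 in flow-through against input (edgeR, BH-adjusted p = 3.45e-07) and −2.87 ± 0.28 in Ψ-IP against flow-through (edgeR, BH-adjusted p = 1.79e-22). The 28-nt locus with the same 5′ end passed in neither of these comparisons, with log2 fold changes of 0.55 and −0.15 (edgeR, BH-adjusted p = 0.0292 and 0.748).

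Of the 10 most abundant groups of overlapping loci, 2 were higher in Ψ-IP than in both other groups. The locus chr10:127699658-127699693 (plus strand, 36 nt) lies in a UTR of Nemp1, which encodes a nuclear envelope protein. It had 120, 158 and 152 CPM in Ψ-IP against 73.1 to 81.0 in input and 75.6 to 110 in flow-through. Its log2 fold change was 0.91 ± 0.20 against input and 0.97 ± 0.24 against flow-through (edgeR, BH-adjusted p = 6.79e-05 and 0.000881). A locus on chromosome 18 (chr18:67055446-67055479, minus strand, 34 nt) had 53.1, 70.5 and 85.1 CPM in Ψ-IP and at most 36.4 in the other libraries, with log2 fold changes of 1.34 ± 0.21 and 1.55 ± 0.26 (edgeR, BH-adjusted p = 1.10e-08 and 1.10e-07). Both loci on chromosome 17 were lower in Ψ-IP. The locus chr17:27319970-27320003 (minus strand, 34 nt) had 84.3, 60.2 and 84.4 CPM in input, 11.7, 9.08 and 9.21 in Ψ-IP and 33.2, 28.9 and 40.6 in flow-through, a log2 fold change of −2.89 ± 0.23 in Ψ-IP against input (edgeR, BH-adjusted p = 3.28e-32). For chr17:27345217-27345250 (plus strand, 34 nt) it was −1.97 ± 0.22 (edgeR, BH-adjusted p = 1.50e-16). At another locus of chromosome 18 (chr18:67056431-67056464, minus strand, 34 nt) both fractions were below input, by −1.38 (log2) in Ψ-IP and −1.63 in flow-through (edgeR, BH-adjusted p = 3.84e-09 and 3.24e-06).

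**Figure D4:**
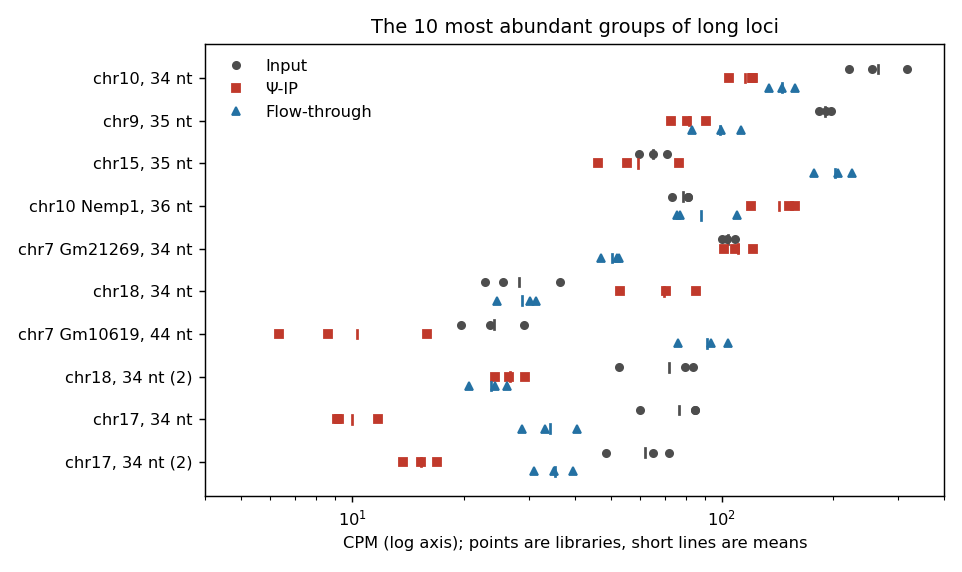
CPM (log axis) of the 10 most abundant groups of overlapping long loci, each shown by its most abundant locus, with chromosome, gene where there is 1 and length; points are libraries and short lines are means of 3. Ψ-IP is highest for the locus of Nemp1 and 1 locus of chromosome 18, flow-through for chromosome 15 and the 44-nt locus of Gm10619, and input for 5 others, whereas input and Ψ-IP overlap above flow-through for Gm21269.

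Loci were also named by the size of their change, among those called, with an average of at least 20 counts over the 6 libraries and no overlap between the groups. Against input, 83 long loci met these conditions with higher and 378 with lower counts in Ψ-IP. The largest rise was at chr4:94320416-94320450 (minus strand, 35 nt), in an intron of the lncRNA gene Gm12648, with 31, 40 and 70 counts in Ψ-IP, 9, 4 and 5 in input and 0, 3 and 5 in flow-through. Its log2 fold change was 3.18 ± 0.43 (edgeR, BH-adjusted p = 1.37e-11). The locus chr2:151149176-151149209 (plus strand, 34 nt, outside genes) had 36, 59 and 89 counts in Ψ-IP, 9, 18 and 9 in input and 0, 0 and 3 in flow-through. It was higher in Ψ-IP than in input by 2.54 ± 0.36 (edgeR, BH-adjusted p = 2.37e-10), while the 31-nt locus with the same 5′ end was lower by −0.78 (edgeR, BH-adjusted p = 0.00147). Further rises were found at chr18:67057414-67057447 and chr15:74637729-74637762, outside genes (log2 fold changes of 2.41 ± 0.42 and 2.37 ± 0.36, edgeR, BH-adjusted p = 3.41e-07 and 3.65e-09). For the locus of chromosome 2, with 3 counts in flow-through, the ratio of Ψ-IP to flow-through was 71.2, with an exact 95% interval of 24 to 348 for counting error.

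A second locus of chromosome 2, chr2:151323347-151323380 (plus strand, 34 nt), had nearly the same values, with 39, 41 and 82 counts in Ψ-IP, 12, 25 and 14 in input and 0, 1 and 1 in flow-through. It rose against input by 1.83 ± 0.35 and its 31-nt counterpart fell by 0.71 on the log2 scale (edgeR, BH-adjusted p = 4.62e-06 and 0.00375). How reads with several alignments were counted is not stated, and whether both loci share reads was not tested. Introns of Cyp19a1, the gene for aromatase, held long loci that went opposite ways. At chr9:54233824-54233857 (minus strand, 34 nt) the counts were 50, 39 and 53 in Ψ-IP, 21, 12 and 4 in input and 11, 0 and 0 in flow-through. At chr9:54246617-54246650 (minus strand, 34 nt) they were 0, 3 and 2 in Ψ-IP, 103, 32 and 82 in input and 19, 32 and 27 in flow-through. The log2 fold changes against input were 2.26 ± 0.38 and −5.06 ± 0.51 (edgeR, BH-adjusted p = 9.09e-08 and 3.49e-20).

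The largest fall was at chr15:59271101-59271135 (minus strand, 35 nt, outside genes), with 101, 48 and 61 counts in input, 0, 0 and 2 in Ψ-IP and 92, 30 and 45 in flow-through. Input exceeded Ψ-IP by a ratio of 91.6, with an exact 95% interval of 25.1 to 762 for counting error. At chr17:27304162-27304200 (minus strand, 39 nt) each Ψ-IP library had 1 count, against 63, 45 and 32 in input and 46, 54 and 62 in flow-through, and input exceeded Ψ-IP by a ratio of 40.7 (exact 95% interval of 13.7 to 200 for counting error). A locus in a UTR of Wdfy3, which encodes a protein of selective autophagy (chr5:101834665-101834698, minus strand, 34 nt), had 1, 3 and 5 counts in Ψ-IP and 153, 66 and 79 in input, and its log2 fold change was −4.73 ± 0.43 (edgeR, BH-adjusted p = 8.46e-24). At chr7:69932823-69932857 (plus strand, 35 nt) it was −4.71 ± 0.42 (edgeR, BH-adjusted p = 4.92e-25). The shorter locus with the same 5′ end mostly fell too. It changed by −5.0 at Wdfy3 (33 nt) and −3.18 at chr15:59271101 (32 nt) on the log2 scale (edgeR, BH-adjusted p = 3.84e-26 and 2.22e-08), and at the Cyp19a1 locus chr9:54246617 the 32-nt locus had 25 counts in all and 0 in Ψ-IP, whereas it changed by −0.05 at the 39-nt locus of chromosome 17 (28 nt) and −0.41 at chr7:69932823 (27 nt), where the BH-adjusted p by edgeR was 0.944 and 0.828. Among the 10 most abundant loci, the shorter locus did not always follow the long one in this comparison. At chr10:75856964, chr9:67725469, chr18:67056431, chr17:27319970 and chr17:27345217 both were called lower, and the shorter locus changed by −1.32, −1.79, −1.74, −1.11 and −2.50 on the log2 scale (edgeR, BH-adjusted p = 6.42e-09, 7.25e-15, 9.08e-08, 5.52e-07 and 7.13e-26). At Nemp1, where the 36-nt locus rose, the 33-nt locus, with 188 counts in all, changed by −2.15 (edgeR, BH-adjusted p = 5.54e-05). At chr18:67055446 and the 44-nt locus of Gm10619 the long locus was called, with log2 fold changes of 1.34 and −1.17, but the shorter was not, with 0.07 and 0.22 (edgeR, BH-adjusted p = 0.815 and 0.451). At the 34-nt locus of Gm21269 the shorter was called lower, by −0.92 (edgeR, BH-adjusted p = 0.000182), and the long locus, at 0.13, was not. At chr15:74640859 neither was called.

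Between Ψ-IP and flow-through, loci stood out both ways. At chr7:52909246-52909279 (minus strand, 34 nt, outside genes) there were 232, 324 and 407 counts in Ψ-IP, 204, 119 and 126 in input and 4, 1 and 11 in flow-through. Flow-through had almost no counts at this locus. The log2 fold change was 6.36 ± 0.41 for Ψ-IP against flow-through (edgeR, BH-adjusted p = 8.31e-51) and 1.41 ± 0.23 against input (edgeR, BH-adjusted p = 6.23e-08). Another intronic locus of Cyp19a1, chr9:54238241-54238274, had 31, 86 and 67 counts in Ψ-IP, 46, 23 and 40 in input and 0, 2 and 2 in flow-through, and Ψ-IP exceeded flow-through by 5.94 ± 0.60 on the log2 scale (edgeR, BH-adjusted p = 1.90e-20). The shorter loci with the same 5′ ends, of 31 and 29 nt, were higher in Ψ-IP than in flow-through as well, by 4.94 and 4.88 on the log2 scale (edgeR, BH-adjusted p = 4.28e-14 and 1.43e-29). The opposite was found at chr6:127826337-127826370 (plus strand, 34 nt), with 105, 74 and 59 counts in flow-through, 9, 3 and 2 in input and 1, 1 and 5 in Ψ-IP. Flow-through was higher than input by 4.01 ± 0.43 (edgeR, BH-adjusted p = 1.35e-07), and its 31-nt counterpart was higher by 3.36 (edgeR, BH-adjusted p = 1.77e-09). A neighbour on that strand, chr6:127826112-127826145 (34 nt), had 2, 8 and 4 counts in flow-through, 68, 51 and 41 in input and 74, 66 and 120 in Ψ-IP, and its log2 fold change in flow-through against input was −3.51 ± 0.47 (edgeR, BH-adjusted p = 3.89e-06).

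Gm10619, named above for its abundant 44-nt locus, held further loci of both kinds. An intronic locus of 41 nt, chr7:73789338-73789378 on the minus strand, had 73, 36 and 25 counts in flow-through, 6, 3 and 1 in input and 2, 3 and 9 in Ψ-IP. The log2 fold change in flow-through against input was 3.61 ± 0.53 (edgeR, BH-adjusted p = 1.34e-05), whereas its 31-nt counterpart, with 6266 counts in all, gave 0.47 (edgeR, BH-adjusted p = 0.0679). An exonic locus of 37 nt, chr7:73809899-73809935, had 10, 0 and 0 counts in flow-through, 103, 63 and 70 in input and 31, 59 and 66 in Ψ-IP, a log2 fold change of −4.60 ± 0.56 in flow-through against input (edgeR, BH-adjusted p = 9.45e-07). Flow-through thus held almost no counts of the exonic locus, which input and Ψ-IP held at overlapping levels of 4.53 to 5.06 and 2.69 to 5.41 CPM.

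The other loci named for size fell into the same patterns. In Ψ-IP against flow-through, the counts at chr17:22517248-22517285 (38 nt) were 0, 0 and 3 against 61, 36 and 28, so that flow-through exceeded Ψ-IP by a ratio of 35.9 (exact 95% interval of 12 to 176 for counting error). At chr5:149818334-149818373 (40 nt) and in a UTR of Cyb5d2 (chr11:72777389-72777422, 34 nt) the log2 fold changes were −4.37 ± 0.62 and −4.31 ± 0.57 (edgeR, BH-adjusted p = 9.95e-11 and 2.35e-12). In flow-through against input, the 43-nt locus in an exon of the lncRNA gene Gm49794 (chr17:27357457-27357499) rose from 2, 2 and 3 counts to 46, 33 and 34, a log2 fold change of 3.89 ± 0.54 (edgeR, BH-adjusted p = 6.17e-06). Rises of 3.6 ± 0.42 at chr13:50513450-50513485 and 3.54 ± 0.57 at chr6:127794744-127794779, both 36 nt long, had edgeR BH-adjusted p = 6.00e-07 and 4.54e-05. The fall at chr14:24365765-24365799 (35 nt) was −3.69 ± 0.59 (edgeR, BH-adjusted p = 4.24e-05).

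For a part of the loci named for the size of their change, the most abundant shorter locus with the same 5′ end was called in the same direction. In Ψ-IP against input this held for 3 of 5 loci that rose and 3 of 5 that fell, and 1 shorter locus of those that rose was called the opposite way. In Ψ-IP against flow-through it held for 4 of 5 and for 3 of the 4 whose shorter locus was tested, and in flow-through against input for 2 of 5 and 2 of 4. Such a share is not given here for all long loci, so these counts stand without a background.

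Within piRNA clusters, the log2 fold change of long counts was below 0 in 147 of 166 clusters for Ψ-IP against flow-through and above 0 in 137 for flow-through against input, with 103 and 73 called. In most clusters the long change lay below that of the 24 to 33 nt counts in the first comparison and above it in the second. Long counts were summed for each cluster, and 166 clusters with an average of at least 20 were tested together with the other length classes. In Ψ-IP against flow-through, 103 clusters were lower and 6 higher (62.0% and 3.61%), against 13.7% and 21.3% of all 1549 sums by cluster and length class. In flow-through against input, 73 were higher and 1 lower (44% and 0.602%), where 10.1% and 30.1% of all sums were. In Ψ-IP against input, 55 were lower and 4 higher (33.1% and 2.41%), against 26.6% and 1.61% of all sums, and without Ψ-IP replicate 1 the total was 32. For the 24 to 33 nt counts of these 166 clusters, 85 were higher and 8 lower in Ψ-IP against flow-through, and 14 higher and 92 lower in flow-through against input. In Ψ-IP against input, 32 were lower and 4 higher. The balance of these shorter counts changed with the scaling. With library totals 50 were higher and 44 lower in Ψ-IP against flow-through, 37 higher and 43 lower in flow-through against input, and 27 higher and 20 lower in Ψ-IP against input. The long counts kept their main direction, with 113 lower and 1 higher, 87 higher and 0 lower, and 33 lower and 3 higher in the same order. The long change lay above that of 24 to 33 nt in 153 of 166 clusters in flow-through against input and below it in 158 in Ψ-IP against flow-through and in 128 in Ψ-IP against input.

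**Figure D5:**
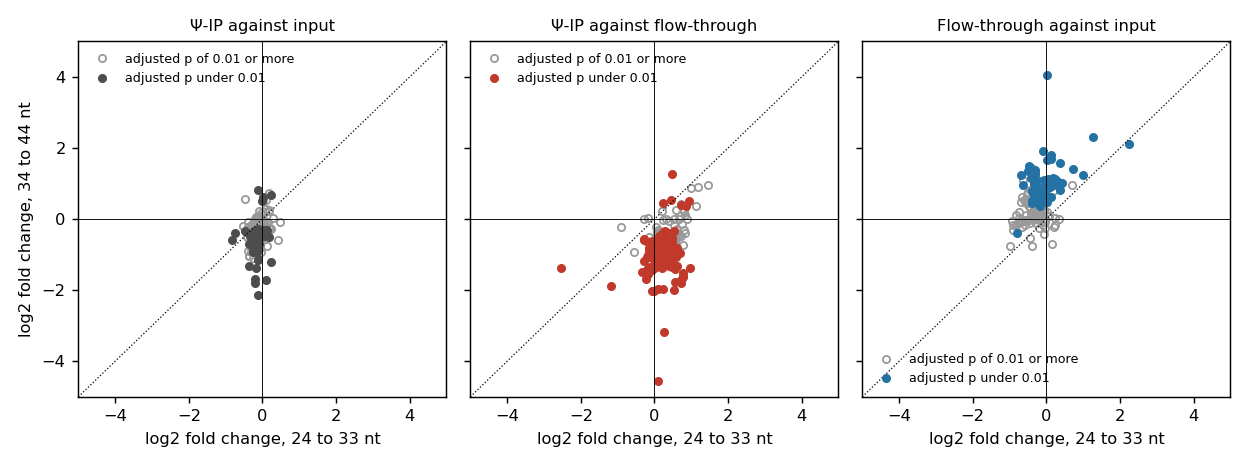
log2 fold change of the counts of 34 to 44 nt against that of 24 to 33 nt for 166 piRNA clusters, in 3 comparisons; filled points passed an adjusted p under 0.01 for 34 to 44 nt (edgeR), and the dotted line marks equal change. Points lie above the line in 153 clusters for flow-through against input and below it in 158 for Ψ-IP against flow-through.

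Long loci made up a median of 1.76% of a cluster's counts outside repeats in input, 1.31% in Ψ-IP and 2.45% in flow-through. The 10 clusters with most long counts held 50.9% of them. The richest, on chromosome 17 at Gm10505 and Gm49794 (long loci between 27269922 and 27371809), had a long share of 1.83% ± 0.150 in input, 1.34% ± 0.0298 in Ψ-IP and 2.48% ± 0.343 in flow-through (SD, n = 3). Its long counts changed by a log2 fold change of −0.61 ± 0.07 in Ψ-IP against input and 0.47 ± 0.09 in flow-through against input (edgeR, BH-adjusted p = 6.36e-08 and 0.00104). The next, on chromosome 9 near C2cd4b (67687108 to 67773499) and on chromosome 7 at Gm10619 and Gm21269 (73759512 to 73849014), changed by −0.66 ± 0.07 and −0.45 ± 0.07 in Ψ-IP against input (edgeR, BH-adjusted p = 1.42e-08 and 1.10e-05). In flow-through against input neither was called, with −0.10 ± 0.08 and 0.22 ± 0.09 (edgeR, BH-adjusted p = 0.288 and 0.0610).

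Clusters in the UTRs of coding genes went both ways. The long counts at Tbl2, a gene on chromosome 5 whose UTR held 99.5% of them, were 1473, 829 and 979 in input, 172, 147 and 314 in Ψ-IP and 1282, 797 and 802 in flow-through. This was the largest fall among clusters in Ψ-IP against input, with a log2 fold change of −2.13 ± 0.10 (edgeR, BH-adjusted p = 1.94e-14), whereas the 24 to 33 nt counts of Tbl2 changed by −0.13 (edgeR, BH-adjusted p = 0.0931). The long share of the cluster was 3.22% ± 0.237 in input and 0.837% ± 0.0610 in Ψ-IP (SD, n = 3). At Cyb5d2, which encodes a protein with a cytochrome b5 domain, long counts were 91, 43 and 64 in input, 17, 12 and 21 in Ψ-IP and 263, 162 and 212 in flow-through, where they made up 24.3% ± 4.16 of the cluster. For Ψ-IP against flow-through the log2 fold change was −3.19 ± 0.25 (edgeR, BH-adjusted p = 6.06e-35), and the 24 to 33 nt counts changed by 0.27 (edgeR, BH-adjusted p = 0.0701). The long counts of a cluster of chromosome 6 at the noncoding Gm21284 were lower in Ψ-IP than in input as well, by −1.79 ± 0.14 (edgeR, BH-adjusted p = 1.13e-10), and its 24 to 33 nt counts changed by −0.19 (edgeR, BH-adjusted p = 0.0330). At Nemp1 long counts were higher in Ψ-IP, by 0.62 ± 0.09 against input (edgeR, BH-adjusted p = 2.61e-06), and its single 36-nt locus held 54.3% of them; the 24 to 33 nt counts changed by 0.02 (edgeR, BH-adjusted p = 0.872). The lincRNA 1700029M20Rik had the largest rise against flow-through, with 986, 894 and 1779 counts in Ψ-IP, 899, 614 and 586 in flow-through and a log2 fold change of 1.28 ± 0.12 (edgeR, BH-adjusted p = 8.03e-25). Its 24 to 33 nt counts rose too, by 0.48 against flow-through and 0.24 against input (edgeR, BH-adjusted p = 1.33e-06 and 0.00263).

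Of the clusters named for the size of their change, 3 held long counts that lay almost wholly in annotated snoRNAs. C/D box snoRNAs, named Snord, guide methylation of other RNAs and are released from introns of host genes. Long loci that overlapped an annotated snoRNA on the same strand by at least 50% of their length held 98.2% of the long counts at Atp5b (Snord59a), 97.9% at Snhg5 (Snord50a and Snord50b) and 95.5% at Eef2 (Snord37), the gene for translation elongation factor 2. At Snhg5 the long counts were 108, 79 and 67 in input, 83, 51 and 117 in Ψ-IP and 553, 420 and 335 in flow-through, a log2 fold change of 2.30 ± 0.13 for flow-through against input (edgeR, BH-adjusted p = 2.81e-07). At Eef2 they were 66, 43 and 45, 39, 64 and 89, and 283, 236 and 179 in the same order, with a log2 fold change of 2.12 ± 0.14 (edgeR, BH-adjusted p = 6.13e-07). The 24 to 33 nt counts of these clusters were higher in flow-through too, by 2.25 at Eef2, 1.26 at Snhg5 and 0.98 at Atp5b on the log2 scale (edgeR, BH-adjusted p = 2.05e-06, 1.23e-05 and 0.000490). At Atp5b long counts were higher than input in Ψ-IP, by 0.83 ± 0.22 (edgeR, BH-adjusted p = 0.00335), where its 24 to 33 nt counts changed by −0.11 (edgeR, BH-adjusted p = 0.741), and in flow-through, by 1.25 ± 0.22 (edgeR, BH-adjusted p = 0.000540). In all, 232 long loci overlapped snoRNAs in this way, and they held 0.0642% to 0.0825% of the long counts in input, 0.122% to 0.162% in Ψ-IP and 0.220% to 0.253% in flow-through.

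The largest rise in flow-through against input was outside genes, at a cluster on chromosome 15 (57975972 to 57979119) with 123, 109 and 157 long counts in flow-through, 12, 7 and 4 in input and 0, 7 and 5 in Ψ-IP. Its log2 fold change was 4.06 ± 0.37 (edgeR, BH-adjusted p = 7.06e-06), and that of its 24 to 33 nt counts was 0.01 (edgeR, BH-adjusted p = 0.931). Of the 29 clusters whose long change in flow-through against input was below 0, 1 was called, on chromosome 2 (151139965 to 151158363), with −0.40 ± 0.11 (edgeR, BH-adjusted p = 0.00873). No cluster was called lower with DESeq2 size factors, with library totals, without flow-through replicate 2 or without input replicate 1, and 3 were with the Wald test. In the chromosome 2 cluster the 24 to 33 nt counts changed by −0.80 (edgeR, BH-adjusted p = 5.98e-07). It also holds the locus chr2:151149176-151149209 described above. At a cluster on chromosome 9 at 4930579C12Rik (89122690 to 89126218), long counts were 77, 67 and 51 in flow-through and 6, 9 and 20 in Ψ-IP, a log2 fold change of −2.02 ± 0.37 (edgeR, BH-adjusted p = 5.11e-07), whereas the 24 to 33 nt counts changed by −0.02 (edgeR, BH-adjusted p = 0.904).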

How the data were processed

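The authors clipped adaptors, kept reads of up to 44 nt, set aside tRNA fragments and mapped the rest to mm10 with Bowtie2, allowing mismatches. They intersected the alignments with repeats and piRNA clusters using bedtools and, per the source data, left out reads of structural RNA. Tools and build are also per the submitters' processing notes. The deposited values are raw counts, not normalized, for each genomic locus and strand of a library. The treatment of reads with several alignments is not given in the sources used here. Starts in the files were read as 0-based and are printed 1-based.

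The 9 libraries were joined by locus, and each locus was assigned to gene features with GENCODE M21 and bedtools 2.31.1. Loci with more than 20 counts in total, sums by length, and sums by cluster and length class with an average of at least 20 were tested in R 4.3.3 with edgeR 4.0.16 (TMM, quasi-likelihood test, Benjamini-Hochberg adjustment over all features of a table) on the 6 libraries of each comparison, at an adjusted p under 0.01. DESeq2 1.42.0 was an alternative, and library totals without TMM were added after seeing the data. Standard errors were taken from the log2 fold change and the F statistic, as its size over √F. Shares per library were compared with two-sided exact permutation tests in SciPy, which cannot go below 0.1. CPM values are counts over TMM-scaled library sizes of all 9 libraries.

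Overlapping loci of the same strand were taken as 1, shown by the most abundant. Named loci are the 10 most abundant and, for each comparison, the 5 largest rises and falls as described; named clusters are the 3 with most long counts and the 3 largest changes each way. The members, lists and rules were chosen with earlier results of these data known.

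Tests on simulated data with 200 changed loci in Ψ-IP against input recovered 0 of 100 at 2-fold and 6 of 100 at 4-fold, with 0 false calls. In the real data 37447 loci were called higher and 73287 lower, so the adjustment was less strict there. The simulated rates for loci therefore do not give the power of the test on real counts. For 166 changed clusters the simulation recovered 71 of 83 at 2-fold and 83 of 83 at 4-fold, with 1 false call among 1549 sums. Intervals of ratios cover counting error only, since reads without molecular identifiers are not independent molecules.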

Additional observations from a re-analysis of the deposited data

How the results depend on the processing

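The order of flow-through, input and Ψ-IP in the share of long counts kept its direction under every alternative run, with 3 libraries a group setting the limit on p and most single loci too rare to test. The difference in percentage points moved to −0.141 for Ψ-IP against input at 36 to 44 nt, to −0.468 and 0.241 for Ψ-IP against flow-through and flow-through against input with loci over 20 counts only, and to −2.66 and 2.39 with each locus counted once. For the share of long counts with the 5′ end of a shorter locus, requiring a shorter locus over 20 counts gave differences of 1.42 (Ψ-IP against input), 6.10 (Ψ-IP against flow-through) and −4.68 (flow-through against input), and each locus counted once gave 2.26 for the first and −2.05 for the last, so the last changed sign.

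Counts of called long loci fell with the DESeq2 Wald test to 787 (Ψ-IP against input) and 1014 (Ψ-IP against flow-through), without a count minimum to 1042 and 970, and above 100 counts to 840 and 991, where fewer loci were tested; at 36 to 44 nt they were 834, 907 and, for flow-through against input, 748. Leaving out 1 library gave 765 to 1557, 979 to 1241 and 568 to 1584 called loci in these 3 comparisons, and 7 to 11 lengths and 32 to 62 clusters for Ψ-IP against input. With library totals without TMM, chosen after seeing the data, 36 clusters were called for Ψ-IP against input. With loci over 20 counts only, 5 lengths passed in flow-through against input. Among the values of single loci, lengths and clusters under the alternatives, 1537 kept their side of the threshold, 99 lost it and 0 reversed. The cause of these shifts was not tested.

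Same-numbered libraries correlated at −0.081 to 0.304 in their deviations over 55806 abundant loci, so numbers were not taken as pairs. With a replicate block, 1236, 1146 and 1206 loci, 6, 10 and 8 lengths, and 56, 107 and 70 clusters were called in the 3 comparisons in the order above, and the shares differed as before, at a sign-flip p of 0.25, the smallest that 3 pairs allow in this exact test.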
